A study of Homo sapiens with 5 samples.

Results

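SWI/SNF complexes slide and eject nucleosomes with the energy of ATP, and the genes described here are 10 of their subunits: ARID1A, ARID1B, ARID2, PBRM1, SMARCA4, SMARCA2, SMARCB1, SMARCC1, SMARCD3 and SMARCE1. They were taken by gene symbol from a table of 28442 gene rows, and all 10 symbols were found. Each complex carries 1 ATPase, SMARCA4 (BRG1) or SMARCA2 (BRM). In the canonical BAF and PBAF types it works with a core that holds SMARCB1, SMARCC1, a SMARCD protein and SMARCE1, while a non-canonical type, ncBAF, lacks SMARCB1, SMARCE1 and any ARID subunit. Among the types with a DNA-binding ARID protein, ARID1A or its paralog ARID1B mark canonical BAF, and ARID2 together with PBRM1 mark PBAF. ARID1A is among the genes most often inactivated in ovarian clear cell carcinoma, and ARID1B is the paralog on which many cells that lack ARID1A rely.

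RNA came from TOV21G, an established human cell line of ovarian clear cell carcinoma that is known for inactivating ARID1A mutations, so the controls carry them as well. The study asked about HDAC6, a mainly cytoplasmic deacetylase, in ovarian cancers with mutant ARID1A. The groups were shHDAC6 (a hairpin against HDAC6), the HDAC6 inhibitors ACY1215 and CAY10603, the control hairpin shControl, and the drug vehicle, with 1 library each. The labels put the 3 interventions in 1 group (repressed HDAC6) and the 2 control libraries in another. Hairpin cells were infected with virus and selected in puromycin. Neither doses nor times, nor which of the listed hairpins was used, could be read from the labels. Total counts ranged from 43498805 to 57442767. HDAC6 itself stood at 29.2 CPM (a gene's share of the library's counts, TMM-scaled) in shHDAC6, 33.2 in ACY1215 and 48.2 in CAY10603, against 48.0 in shControl and 51.1 in vehicle. Of 11 clear cell and epithelial markers, 8 or 9 reached 1 CPM in each library, among them PAX8 (104 to 145 CPM), while NAPSA, KRT7 and CDH1 lay near or below 1 CPM. Markers of leukocytes summed to at most 2.24 CPM, of endothelium to at most 0.518 CPM and of erythroid cells to at most 0.157 CPM. Of 6 fibroblast markers, 2 reached 1 CPM in every library (COL1A1 and COL1A2), and the list summed to 37.6 CPM in ACY1215 and 36.9 in CAY10603, against 26.5 in vehicle; their part in the results was not tested.

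The paralogs are similar proteins, so the question comes first whether their RNA can be told apart. The longest identical runs between their coding sequences (GENCODE release 29) are shown here because their length bears on whether a read can be placed on 1 gene.
ARID1A and ARID1B: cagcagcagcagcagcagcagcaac
SMARCA4 and SMARCA2: gagaagctggagaagcagcagaagat
SMARCC1 and SMARCC2: ttcaatgaatggatgaatgagga
SMARCD3 and SMARCD1: gaagatggctgacaaaat
These runs measured 25, 26, 23 and 18 bases. The ARID1A and ARID1B run is a CAG repeat, which stands at different places in the 2 coding sequences (bases 3979 to 4003 of 6855 in ARID1A, bases 589 to 613 of 6996 in ARID1B). Of all 50-base words in the members' transcripts, 0 to 0.965% also occurred in transcripts of another gene name, except in SMARCE1 with 18.9%. The SMARCE1 words were shared most with AC073508.2 and the pseudogenes SMARCE1P5, SMARCE1P2 and SMARCE1P6. Reads of SMARCE1 can therefore be split between copies, and its values are less certain than those of the other 9 members.

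Levels of different genes were compared per transcript length, as the authors' FPKM. SMARCE1, the HMG-box subunit BAF57, was the highest member with 251 FPKM in shHDAC6, 224 in ACY1215 and 286 in CAY10603, against 279 FPKM in both shControl and vehicle. Below it came a cluster of core genes and the main ATPase: the scaffold SMARCC1 averaged 56.2 ± 7.4 FPKM, the ATPase SMARCA4 55.7 ± 5.4 and SMARCB1 53.4 ± 11.8 (SD over n = 5 libraries). The ranges of these 3 overlapped, so their order is within the spread between libraries. PBRM1, the bromodomain subunit of PBAF, averaged 17.6 ± 3.1 FPKM, SMARCA2 12.4 ± 0.9, ARID2 11.2 ± 1.4 and SMARCD3 9.97 ± 1.71, with each range overlapping the next. In bulk RNA, fewer cells of a kind and less RNA per cell cannot be told apart. ARID1B averaged 5.12 ± 0.62 FPKM and ARID1A 2.31 ± 0.27 (SD, n = 5). ARID1A was the lowest member in 5 of 5 libraries, and its range of 2.0 to 2.61 FPKM did not meet that of ARID1B, 4.16 to 5.58 FPKM. Total RNA libraries also hold unspliced transcripts, and RNA levels say nothing of the protein.

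**Figure D1:**
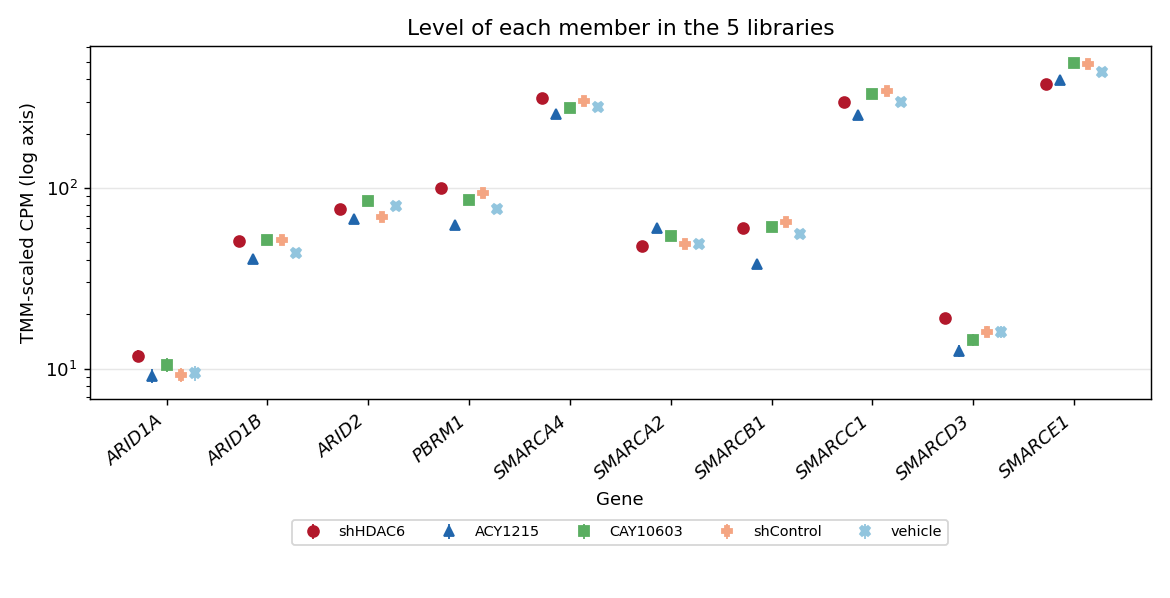
TMM-scaled CPM of the 10 members (log axis) in the libraries of shHDAC6, ACY1215, CAY10603, shControl and vehicle, with 95% Poisson intervals for counting error. Differences between genes, which here are not scaled by length, span from about 9.09 CPM (ARID1A in ACY1215) to 491 CPM (SMARCE1 in CAY10603), while each gene stays within 1.72-fold over the 5 libraries.

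Each member kept a narrow range across the treatments. The highest library exceeded the lowest by 1.22-fold for SMARCA4, the least, and by 1.72-fold for SMARCB1, the most (TMM-scaled CPM). The ACY1215 library held the lowest value for 8 of 10 members, and shHDAC6 for the other two, SMARCA2 and SMARCE1.

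Repressed HDAC6 was compared with control over all 5 libraries, with shRNA or drug as a covariate. None of the 10 members was called: 0 passed an adjusted p of 0.05 in edgeR's quasi-likelihood test, and 0 had an unadjusted p under 0.05 (the smallest was 0.399, ARID1A). Of 13449 genes tested, 0.0% passed the adjusted threshold and 0.744% the unadjusted one, and DESeq2 and limma-voom also called 0 members. ARID1A had a pooled log2 fold of 0.18 ± 0.20 (SE, edgeR adjusted p = 1.00), SMARCE1 of -0.15 ± 0.18 and SMARCB1 of -0.15 ± 0.21, both with edgeR adjusted p = 1.00. The other 7 lay between -0.11 (SMARCC1) and 0.10 (SMARCA2). The members' median was -0.00, as was 0.00 for all genes tested. Because a hairpin and 2 compounds stand in as replicates of one another, and no label speaks of separate cultures, these p-values measure only the spread between libraries, in which any difference between the interventions is included. With 2 residual degrees of freedom, a p above the threshold does not show that the members were unaffected.

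No member stood apart from both controls in all interventions. The count of members above both controls in all 3 libraries of repressed HDAC6 was 0 of 10 (4.93% of 10741 genes), and the count below both was 0 of 10 (4.57% of these genes). No member was even higher than its own control in all 3 (11.6% of genes) or lower in all 3 (10.8% of genes). Each of the 10 was thus above its control in at least 1 intervention and below it in another.

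**Figure D2:**
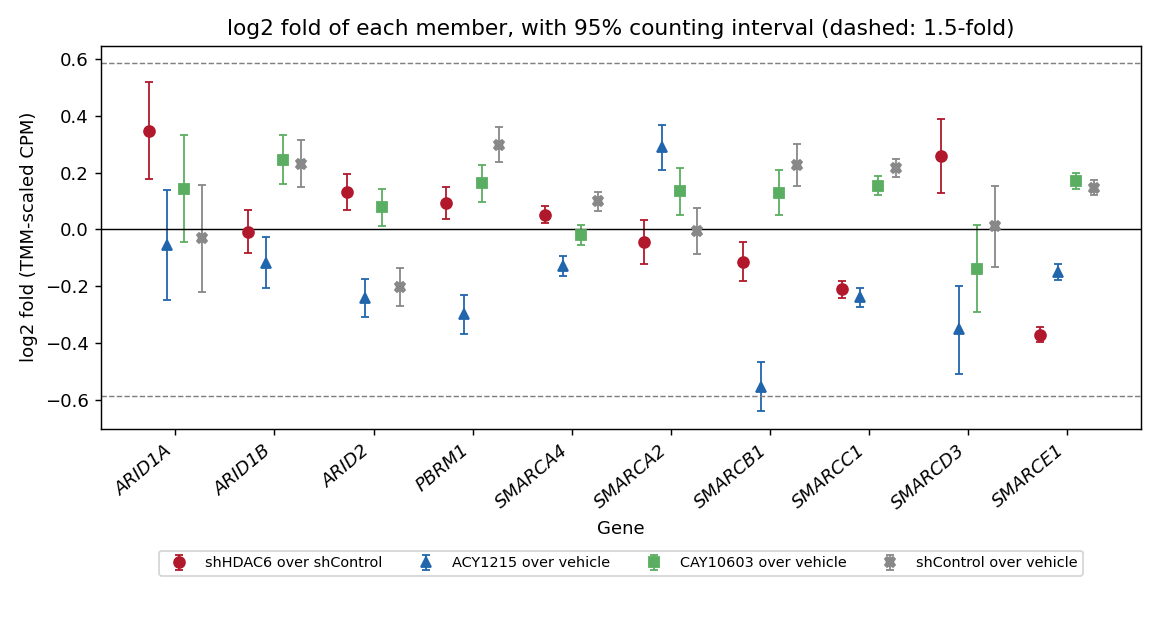
log2 folds of TMM-scaled CPM for each member in shHDAC6 over shControl, ACY1215 over vehicle, CAY10603 over vehicle and, in grey, shControl over vehicle, with 95% exact binomial intervals for counting error and dashed lines at 1.5-fold. No fold crosses a dashed line, and the SMARCB1 fold in ACY1215 (-0.55) comes closest.

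The single pairs have 1 library a side, so what follows describes libraries and carries no test. As a yardstick, shControl and vehicle, neither of which had an HDAC6 intervention, differed by a median absolute log2 fold of 0.18 over the members. Counting intervals of 7 of 10 members left out 0 even between these controls, so for these counting error is smaller than the difference between the controls. That difference includes any effect of experiment type, because hairpin cells were infected with virus and selected in puromycin. A fold larger than the gene's own difference between controls was seen for 4 of 10 members in shHDAC6, 9 of 10 in ACY1215 and 5 of 10 in CAY10603. Over 10741 genes the same held for 49.5% in shHDAC6, 59.2% in ACY1215 and 32.3% in CAY10603. Folds in ACY1215 were wider over all genes too, with a median absolute log2 fold of 0.22, against 0.17 between the controls. Both drugs share the vehicle library. At least 1.5-fold differences numbered 0 of 10 in each of the 3 interventions, while over 10741 genes 5.02% reached that size in shHDAC6, 13.6% in ACY1215 and 1.04% in CAY10603. Between the controls it was 0 of 10 members and 6.73% of genes.

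**Figure D3:**
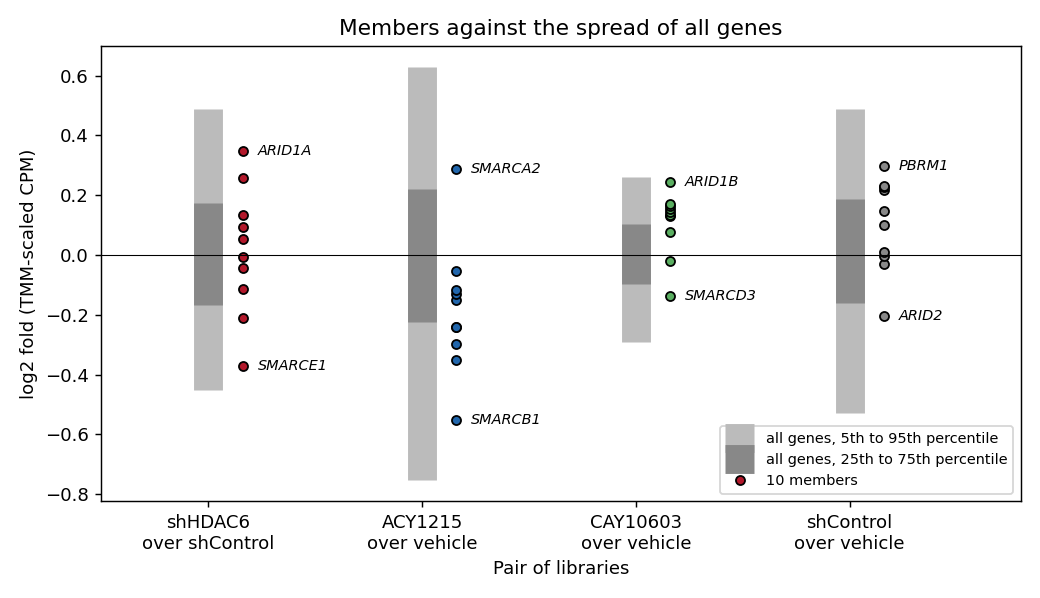
log2 folds (TMM-scaled CPM) of the 10 members (circles) beside the 5th to 95th and 25th to 75th percentile ranges of 10741 genes, for shHDAC6 over shControl, ACY1215 over vehicle, CAY10603 over vehicle and shControl over vehicle; the lowest and highest members are named. All members lie inside the 5th to 95th percentile range of each pair, with 9 of 10 below 0 in ACY1215 and 8 of 10 above 0 in CAY10603.

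Among the ARID subunits, ARID1A was counted at 11.8 CPM in shHDAC6, 9.09 in ACY1215 and 10.4 in CAY10603, against 9.24 in shControl and 9.45 in vehicle. In CPM the shHDAC6 library was the highest, CAY10603 lay between it and the controls, and ACY1215 was slightly below both controls. By FPKM it was 2.61 in shHDAC6, 2.0 in ACY1215 and 2.57 in CAY10603, against 2.26 in shControl and 2.13 in vehicle, so that CAY10603 was about as high as shHDAC6. Its log2 fold in shHDAC6 was 0.35 (counting interval 0.18 to 0.52), above 89.2% of genes in that pair, and against vehicle it was 0.32. By FPKM the log2 fold was 0.20 in shHDAC6 over shControl and 0.26 in CAY10603 over vehicle. The CPM folds in ACY1215 (-0.05) and CAY10603 (0.14) had counting intervals that held 0, so at counts of 421 to 620 per library they were not detectable in that unit. ARID1B had 51.1 CPM in shHDAC6, 40.3 in ACY1215 and 51.8 in CAY10603, against 51.3 in shControl and 43.7 in vehicle. Here shHDAC6 matched its own control (log2 fold -0.01), CAY10603 was higher than vehicle (0.24) and ACY1215 lower (-0.12). CAY10603 lay at the level of shControl (log2 fold 0.01), and the controls themselves differed by 0.23.

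The PBAF subunits ARID2 and PBRM1 were both lowest in ACY1215. ARID2 had 76.0 CPM in shHDAC6, 67.4 in ACY1215 and 84.2 in CAY10603, against 69.3 in shControl and 79.8 in vehicle. PBRM1 had 100.5 CPM in shHDAC6, 62.3 in ACY1215 and 85.7 in CAY10603, against 94.2 in shControl and 76.6 in vehicle. The log2 folds in ACY1215 were -0.24 and -0.30, and over shControl they were -0.04 for ARID2 and -0.60 for PBRM1, so that of ARID2 all but vanished with the other control. The controls differed by -0.20 for ARID2 and 0.30 for PBRM1 on the same scale (shControl over vehicle).

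By CPM the ATPases differed in direction in ACY1215. SMARCA4 had 313 CPM in shHDAC6, 257 in ACY1215 and 278 in CAY10603, against 302 in shControl and 282 in vehicle. SMARCA2 had 47.5 CPM in shHDAC6, 60.02 in ACY1215 and 53.9 in CAY10603, against 49.0 in shControl and 49.1 in vehicle. SMARCA2 was the member with the closest controls (log2 fold -0.00 of shControl over vehicle). By CPM it was the sole one higher in ACY1215 than in vehicle (0.29, interval 0.21 to 0.37). SMARCA4 was lower there, with -0.13. By FPKM SMARCA2 was 11.9 in ACY1215 and 14.1 in CAY10603, against 12.1 in vehicle. The size and direction of its difference in ACY1215 thus depend on unit and scaling. The log2 fold was -0.02 by FPKM, or 0.08 relative to the median gene.

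The lowest folds were those of core subunits. SMARCB1, the small core subunit lost in rhabdoid tumours, had 60.1 CPM in shHDAC6, 37.8 in ACY1215 and 60.8 in CAY10603, against 65.0 in shControl and 55.6 in vehicle. ACY1215 alone was low, and the other 4 libraries lay between 55.6 and 65.0 CPM. Its log2 fold over vehicle was -0.55 (interval -0.64 to -0.47), with 8.42% of genes lower in that pair. Over shControl the SMARCB1 fold was -0.78, which is 1.72-fold and past the 1.5-fold line, as was that of PBRM1 (-0.60). The share of all genes past that line in ACY1215 over shControl was not computed. By FPKM SMARCB1 was 34.3 in ACY1215, against 56.7 in vehicle, a log2 fold of -0.73, or -0.62 relative to the median gene, which itself shifted by -0.10 on the FPKM scale in that pair. In that unit SMARCB1 passed 1.5-fold, as did 10.4% of genes on the lower side.

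SMARCC1, a scaffold of the core, had 299 CPM in shHDAC6, 252 in ACY1215 and 331 in CAY10603, against 345 in shControl and 297 in vehicle. It was lower in shHDAC6 (log2 fold -0.21) and in ACY1215 (-0.24) than in their own controls, but shHDAC6 lay at the level of vehicle (0.01). SMARCE1 had 374 CPM in shHDAC6, 393 in ACY1215 and 491 in CAY10603, against 483 in shControl and 436 in vehicle. Its fold of -0.37 in shHDAC6 was the lowest of the members there (8.32% of genes were lower), and it was -0.15 by FPKM. SMARCD3 (BAF60C), a SMARCD paralog best known from heart and muscle, had 19.2 CPM in shHDAC6, 12.5 in ACY1215 and 14.5 in CAY10603, against 16.04 in shControl and 15.9 in vehicle. The controls agreed within counting error, shHDAC6 was higher (0.26) and ACY1215 lower (-0.35), while the interval of the CAY10603 fold (-0.14) held 0. With both drugs below their control and the hairpin above it, the shRNA fold was set against the drug fold in an edgeR interaction, which 0 of 10 members passed, against 0.00744% of 13449 genes.

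In ACY1215 9 of 10 members were lower than in vehicle, against 50% of 10741 genes, with a median log2 fold of -0.19 against -0.00 for all genes. By FPKM relative to the median gene the count was 8 of 10. In CAY10603 8 of 10 were higher than in vehicle, against 51.5% of genes, with a median of 0.14 against 0.01. With shControl in place of vehicle the CAY10603 median was -0.03, on the other side of 0. In shHDAC6 5 of 10 were higher than in shControl, against 50.7% of genes, and the median was 0.02. Of the control pair itself, 7 of 10 members were higher in shControl than in vehicle (52.3% of genes), with a median of 0.12. The members are subunits of related SWI/SNF complexes measured in the same libraries, so these counts are not independent observations. The drugs were set side by side only, because their doses and times are not known.

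Other subunits of SWI/SNF complexes, a list of 21 genes, were set beside the members. The list was drawn up by membership of the complexes, with earlier results of these data known. Of these, 15 had a mean of at least 5 CPM; the tissue-restricted genes DPF1, DPF3, BCL11A, BCL11B and ACTL6B and the ncBAF gene GLTSCR1 did not. None of the 15 passed the pooled edgeR test (0 at an adjusted p of 0.05 and 0 at an unadjusted p under 0.05). In shHDAC6 6 of 15 were higher than in shControl (median log2 fold -0.04). In ACY1215 13 of 15 were lower than in vehicle (median -0.13), and in CAY10603 9 of 15 were higher (median 0.02, against 0.14 for the members). Among the 15, past 1.5-fold were BCL7C and DPF2 in ACY1215, both lower (7.76% of genes were lower by that size). Of the genes under 5 CPM, DPF1, DPF3, BCL11A and BCL11B were higher in ACY1215 than in vehicle. Their log2 folds were 1.12, 2.78, 1.19 and 1.63, from values of at most 1.90 CPM. GLTSCR1 was lower there (-0.32), and ACTL6B had 0 counts. In the other interventions these low genes went both ways, with DPF1 at -0.82 in shHDAC6 and BCL11B at 0.77 in CAY10603. BCL7C, a small accessory subunit, had 20.9 CPM in shHDAC6, 8.75 in ACY1215 and 11.7 in CAY10603, against 13.96 in shControl and 13.7 in vehicle. Its controls lay close together, shHDAC6 stood above them and both drugs below. DPF2, a histone-reading PHD finger subunit of BAF, had 33.6 CPM in shHDAC6, 20.9 in ACY1215 and 26.5 in CAY10603, against 23.4 in shControl and 32.1 in vehicle. Its controls differed by a log2 fold of -0.45, and over shControl the ACY1215 fold was -0.16 instead of -0.62. Below both controls in all 3 interventions was 1 of 15 (4.57% of genes): SS18, the BAF subunit that is fused to SSX in synovial sarcoma. Its log2 folds were -0.29 in shHDAC6, -0.06 in ACY1215 and -0.03 in CAY10603, and it is named here because of these values. Lower than their own control in all 3 were 3 of 15, SS18 among them (10.8% of genes), and higher in all 3 were 0 of 15 (11.6% of genes).

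Other remodeller families were listed for comparison. The median log2 fold in ACY1215 over vehicle was -0.20 for 12 ISWI genes, -0.03 for 18 CHD and NuRD genes, 0.01 for 19 INO80 and SRCAP genes and -0.03 for 9 other genes with an ARID domain. In CAY10603 over vehicle the same medians were 0.09, 0.08, -0.05 and 0.02. Lower in ACY1215 than in vehicle were 9 of 12 ISWI genes, 10 of 18 CHD and NuRD genes, 9 of 19 INO80 and SRCAP genes and 5 of 9 other ARID genes, against 50% of all genes. The ISWI median was thus close to that of the members (-0.19), and the other 3 medians were near 0. The difference between the families was not tested.

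The balance of paralogs within a library does not depend on how libraries are scaled to each other. For the SMARCC scaffolds the FPKM ratio of SMARCC1 to SMARCC2 was 2.49 in shHDAC6, 1.84 in ACY1215 and 2.88 in CAY10603, against 2.78 in shControl and 2.93 in vehicle. ACY1215 stood apart, with a counting interval of 1.79 to 1.89, where the other 4 libraries ranged from 2.49 to 2.93. SMARCC2 itself had 134 CPM in ACY1215, against 122 in shControl and 100.1 in vehicle. Its ACY1215 log2 fold was 0.42 over vehicle and 0.13 over shControl, while the controls differed by 0.29. With SMARCC1 lower in ACY1215, the ratio was 0.628 times that of vehicle. The ratio of SMARCA4 to SMARCA2 was 5.19 in shHDAC6, 4.04 in ACY1215 and 3.799 in CAY10603, against 4.88 in shControl and 4.65 in vehicle. It was below both controls in both drugs. By CPM its log2 change was -0.42 in ACY1215 and -0.15 in CAY10603, against -0.20 and -0.29 by FPKM, so which drug differed more depends on the unit. For ARID1A to ARID1B the ratio was 0.468 in shHDAC6, 0.481 in ACY1215 and 0.466 in CAY10603, against 0.409 in shControl and 0.443 in vehicle. By FPKM the 3 interventions were nominally above both controls, but the counting interval of each (0.428 to 0.511 for shHDAC6) held the vehicle value. The value of shControl, the own control of shHDAC6, lay below each of them, while its interval (0.372 to 0.448) overlapped them. In shHDAC6 over shControl the log2 change was 0.19 by FPKM and 0.36 by CPM. By CPM the direction in CAY10603 turned, with a log2 change over vehicle of -0.10 against 0.07 by FPKM. SMARCD3 made up 15.3% of the summed FPKM of SMARCD1, SMARCD2 and SMARCD3 in shHDAC6, 15.6% in ACY1215 and 14.8% in CAY10603, against 15.3% in both shControl and vehicle. The SMARCD3 share thus held while SMARCD3 itself ranged over 1.54-fold (CPM). Its paralogs had log2 folds of the same sign as SMARCD3 in shHDAC6 (SMARCD1 0.14 and SMARCD2 0.29) and in ACY1215 (SMARCD1 -0.27 and SMARCD2 -0.39). In CAY10603 SMARCD2 was at -0.12, like SMARCD3, and SMARCD1 at 0.08.

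**Figure D4:**
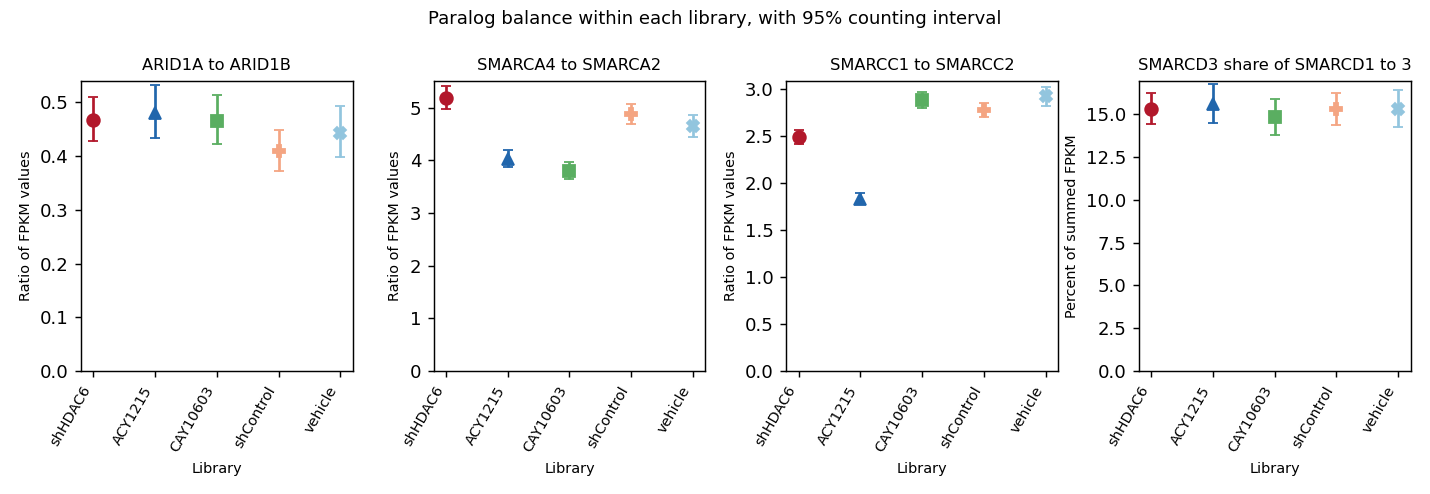
FPKM ratio of ARID1A to ARID1B, SMARCA4 to SMARCA2 and SMARCC1 to SMARCC2, and the percent of SMARCD1 to SMARCD3 FPKM held by SMARCD3, in each library (axes start at 0; bars are 95% counting intervals). The SMARCC1 to SMARCC2 ratio is 1.84 in ACY1215 and between 2.49 and 2.93 elsewhere, while the SMARCD3 share stays between 14.8% and 15.6%.

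Counts and FPKM differed for some members. Dividing one by the other gives, up to a constant per library, the transcript length that the FPKM used. Scaled by the median gene and set to 1 in shControl, this quotient was 0.980 for SMARCA2 in shHDAC6, 1.18 in ACY1215 and 0.931 in CAY10603, against 1.02 in vehicle. The change from vehicle to ACY1215 was 1.15-fold, as far as in 1.38% of 10592 genes. For SMARCB1 the quotient was 1.16 in shHDAC6, 1.07 in ACY1215 and 1.07 in CAY10603, against 1.02 in vehicle. For SMARCE1 it was 0.859 in shHDAC6 and for ARID2 0.903, both the lowest of the libraries. The quotient of ARID1A was 1.10 in shHDAC6, 1.06 in ACY1215 and 0.980 in CAY10603, against 1.11 in vehicle, so it also differed between the controls. ARID1B, SMARCA4, SMARCC1 and SMARCD3 stayed within 0.984 to 1.00 in all libraries. The files give no values per transcript, so which transcripts of a gene differed was not tested.

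**Figure D5:**
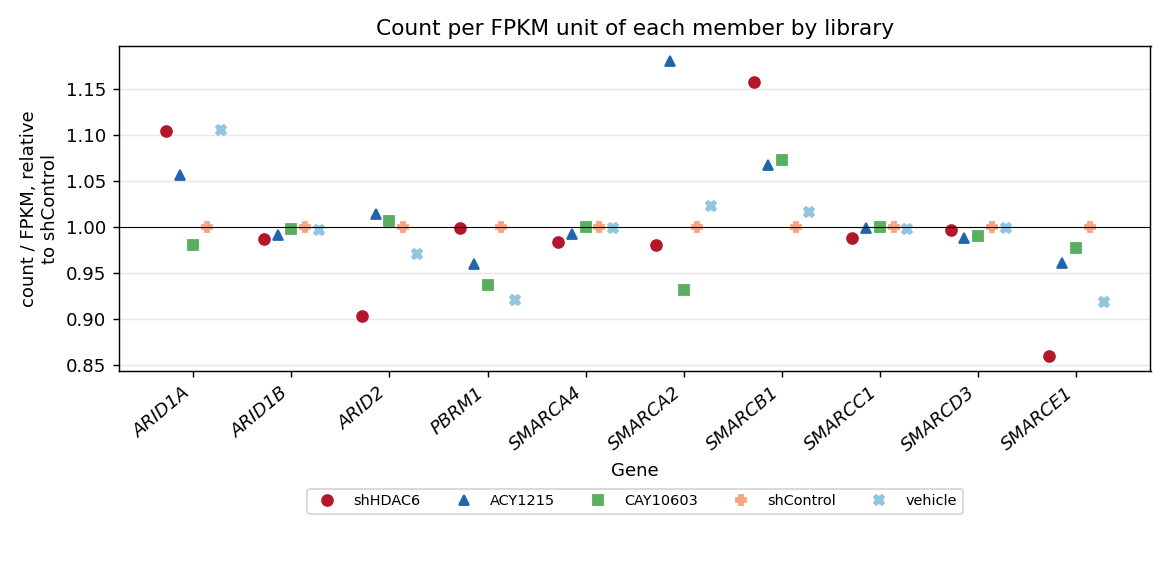
Count divided by FPKM for each member in each library, scaled by the median gene of the library and set to 1 in shControl. SMARCA2 in ACY1215 (1.18), SMARCB1 in shHDAC6 (1.16) and SMARCE1 in shHDAC6 (0.859) lie farthest from 1.

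The stretches before the starts of ARID1A, SMARCB1 and SMARCA2 are printed because these genes gave the highest fold in shHDAC6, the lowest fold in ACY1215 and the highest quotient of counts to FPKM. Each holds 250 bases before a RefSeq start (build GRCh38.p14, plus strand), with matches on either strand in capitals to the GC box GGGCGG, the CCAAT box, the E box CACGTG or the TATA box TATAAA; none of the printed matches overlap.
ARID1A chr1:26695765-26696014: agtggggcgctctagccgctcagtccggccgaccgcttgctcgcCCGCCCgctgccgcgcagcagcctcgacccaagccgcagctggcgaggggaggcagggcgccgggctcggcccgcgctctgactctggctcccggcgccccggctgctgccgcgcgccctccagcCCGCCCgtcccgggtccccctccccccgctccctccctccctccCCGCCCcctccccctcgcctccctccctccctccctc
SMARCB1 chr22:23786716-23786965: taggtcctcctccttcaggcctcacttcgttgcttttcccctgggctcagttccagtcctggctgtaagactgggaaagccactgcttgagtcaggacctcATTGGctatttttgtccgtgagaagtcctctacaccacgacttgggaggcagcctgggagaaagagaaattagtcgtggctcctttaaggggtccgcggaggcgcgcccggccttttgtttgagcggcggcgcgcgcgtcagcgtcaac
SMARCA2 chr9:2015097-2015346: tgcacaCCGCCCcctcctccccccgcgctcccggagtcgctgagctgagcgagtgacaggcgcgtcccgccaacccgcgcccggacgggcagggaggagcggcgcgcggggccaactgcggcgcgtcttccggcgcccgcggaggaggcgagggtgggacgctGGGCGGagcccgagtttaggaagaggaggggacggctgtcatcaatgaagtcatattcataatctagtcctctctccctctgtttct
SMARCA2 chr9:2157412-2157661: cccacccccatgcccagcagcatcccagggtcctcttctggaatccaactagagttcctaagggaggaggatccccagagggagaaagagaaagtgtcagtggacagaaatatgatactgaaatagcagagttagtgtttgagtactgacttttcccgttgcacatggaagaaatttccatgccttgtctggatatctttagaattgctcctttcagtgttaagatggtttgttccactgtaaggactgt
The table held promoters for 8 of the 10 members, and none for ARID2 and SMARCC1. ARID1A had 3 GC boxes in a stretch of 80.4% G and C, and the upstream SMARCA2 stretch had 2, where 42.6% of 35116 promoters held at least 1. SMARCB1 had 1 CCAAT match, as had 32.0% of promoters, and no GC box. No printed stretch held an E box (6.34% of promoters) or a TATA box (10.7%). SMARCA2 had 4 listed starts, of which the first and the third are printed, the third as an example of a start far inside the gene. The third, 142315 bases downstream of the first, had 46.0% G and C and none of the 4 motifs, as had the fourth, while the second, not printed, held 1 TATA box. The deposited values are per gene and hold no measure of binding, so these matches are a description of sequence only.

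The genes whose 5 library values ran most like those of ARID1A were CAMTA1, FN3KRP, MAP3K1, UBXN11 and EIF4A3. They were found by the root mean square difference of log2 CPM values centred on each gene's mean over the 5 libraries, which was 0.02 for CAMTA1 and 0.04 for EIF4A3, against a median of 0.21 over 10296 genes. EIF4A3, a core protein of the exon junction complex, had log2 folds of 0.31 in shHDAC6, -0.11 in ACY1215 and 0.14 in CAY10603. The gene was picked for its likeness to ARID1A in these libraries, so these folds are no separate result. Among the members SMARCA4 was the closest to ARID1A, at 0.11 and rank 762, and SMARCB1 the farthest, at 0.25.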

How the data were processed

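RNA-seq libraries of total RNA (stranded kit, Trizol extraction, per the labels' protocols) were analysed for 5 TOV21G samples. The authors deposited 1 table with expected counts per gene, rounded to whole numbers, and FPKM with 2 decimals, per the file headers. The submitters' processing notes name hg19, RSEM 1.2.3 and edgeR without a version, with no role given. No source used here states an aligner or strand setting. DMSO in a column name was taken to mean vehicle. Blank rows (2, with 0 counts) were left out, and columns of unknown samples numbered 0.

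The pooled fit used edgeR 4.0.16 in R 4.3.3 (TMM, robust quasi-likelihood F test, experiment type as covariate) on genes that reached 1 CPM in 2 or more libraries, with Benjamini-Hochberg adjustment over all 13449. It was tested on simulated data. DESeq2 1.42.0 and limma 3.58.1 were alternatives. Single pairs used log2 TMM-scaled CPM (prior count 2) of the 10741 genes that averaged 5 CPM or more; FPKM folds used a pseudocount of 0.1. All 10 members passed both filters. Intervals (exact Poisson or Clopper-Pearson binomial, 95%) cover counting error only. Named genes were the 10 members, 21 other subunits (those at least 1.5-fold apart in any pair and paralogs of members), HDAC6, and the 5 genes with a plain symbol nearest to ARID1A. Members and lists were chosen with earlier results of these data known.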

Additional observations from a re-analysis of the deposited data

Results flagged for a closer look

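By CPM SMARCD3, SMARCA2 and SMARCA4 lay to one side of their own control in shHDAC6 and to the other in both drugs. By FPKM SMARCA2 did not, with log2 folds of -0.01 in shHDAC6 and -0.02 in ACY1215. Relative to the median gene its FPKM folds were -0.02 in shHDAC6, 0.08 in ACY1215 and 0.27 in CAY10603, again on opposite sides. For SMARCD3 the log2 folds were 0.26 in shHDAC6, -0.35 in ACY1215 and -0.14 in CAY10603. The fold in the shRNA experiment minus that in the drug experiment was 0.50 ± 0.38 (SE) on the log2 scale, with an edgeR adjusted p of 0.967 for the interaction, which was fitted after the values were seen and has 1 residual degree of freedom. For SMARCA2 this difference was -0.26 ± 0.30 and for SMARCA4 0.13 ± 0.30, with edgeR adjusted p = 0.967 and 0.970. The interaction passed for 1 of 13449 genes (0.00744%), which is no member. Both drugs share the vehicle library, and the folds of SMARCA4 in shHDAC6 (0.05) and CAY10603 (-0.02) and of SMARCA2 in shHDAC6 (-0.04) were small.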

How the results depend on the processing

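No member was called under any of the 11 alternatives to the pooled fit (RLE size factors, DESeq2, limma-voom, no filter, filterByExpr, no covariate, and each library left out); the smallest adjusted p was 0.999. With 1 library left out the counts of called members ranged from 0 to 0. The pooled log2 folds then ranged from 0.047 to 0.35 for ARID1A, -0.065 to 0.11 for ARID1B, -0.074 to 0.13 for ARID2, -0.11 to 0.12 for PBRM1, -0.075 to 0.053 for SMARCA4, -0.044 to 0.21 for SMARCA2, -0.34 to 0.00010 for SMARCB1, -0.23 to -0.029 for SMARCC1, -0.24 to 0.26 for SMARCD3 and -0.37 to 0.0196 for SMARCE1. ARID1A and SMARCC1 alone kept their sign under all of these. These runs are not separate checks, because the experiment type covariate stayed in the fit. Without vehicle the drugs have no control, so the fold is that of shHDAC6 over shControl (0.35 for ARID1A). Without shControl or shHDAC6 the remaining hairpin library is alone in its experiment type and adds nothing. Both runs thus give the drug fold (0.048 and 0.047 for ARID1A). Without the experiment type covariate PBRM1 was -0.044, against 0.01 with it. The SMARCB1 fold rests on ACY1215, without which it was 0.00010.

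With the other control the medians of single pairs were shHDAC6 0.13 over vehicle, ACY1215 -0.32 and CAY10603 -0.025 over shControl. For ACY1215 over vehicle total-count scaling gave -0.30 and FPKM -0.33, where these scales shift the median of all genes by -0.10 as well. For CAY10603 over vehicle they gave 0.089 and 0.063, and for shControl over vehicle 0.090 and 0.076. RLE size factors and a prior count of 0.5 left the medians within counting error. Of 40 single folds, the sign differed for 7 by FPKM, 2 by total counts and 1 by RLE; with the other control it differed for 4 of 10 in shHDAC6 and 3 of 20 in the drugs. Members outside both controls stayed at 0 above and below under RLE, total counts and FPKM. No paired analysis was possible because the labels carry no replicate numbers; experiment type served as the covariate. ARID1A, with 421 to 620 counts, is limited most by depth.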
